A study of Mus musculus with 24 samples.

Results

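Fibroblast growth factors (FGFs) and their receptors are described here in mouse cells taken from epiblast to definitive endoderm with and without the homeobox factor OTX2: the 6 ligand genes Fgf4, Fgf5, Fgf8, Fgf10, Fgf15 and Fgf17, and the 4 genes of the FGF receptor tyrosine kinases, Fgfr1 to Fgfr4. The genes were chosen by name, with earlier results of these data known. All 10 were found among the 18205 genes of the deposited expression table. The cells were BL6/129 hybrid epiblast stem cells (EPI, cultured relatives of the postimplantation epiblast) of 3 lines, named 7H, 7H1 and 7H2. In every library, vehicle or treated, OTX2 carried a dTAG degron and EGFP; the degron lets the small molecule dTAG13 direct the tagged protein to degradation. The EPI medium was N2B27 and held activin A (20 ng/ml), the ligand FGF2 (12.5 ng/ml) and NVP (175 nM). Cells of the primitive streak stage (PS) followed 16 h of activin A at 40 ng/ml with the WNT pathway activator CHIR at 3 µM. Definitive endoderm was made in 24 h (DE1) or 48 h (DE2) of activin A at 100 ng/ml with the BMP receptor inhibitor LDN at 100 nM. Each stage was sampled after 21 h of dTAG13 or of the vehicle DMSO, with 1 library of polyA RNA per line, treatment and stage, so 8 groups of 3 make up the 24 libraries. The stated 21 h is longer than the 16 h of streak induction, and the labels do not say how the exposure was placed around it. FGF2 is named in the EPI medium and in none of the later media. The labels do not say how the 3 lines relate to each other, and the p-values below measure only the spread between them.

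FGFs are secreted proteins that bind receptor tyrosine kinases on neighbouring cells with the help of heparan sulphate, and their main output is the RAS and ERK cascade. Epiblast cells make FGF4 and FGF5, cells at the primitive streak make FGF8 and FGF4 and need FGFR1 to leave the streak, and FGF10 is known as a mesenchymal ligand of the FGFR2b isoform in budding organs. FGF15 is a hormone-like ligand, the mouse counterpart of human FGF19, and FGF17 is a close relative of FGF8.

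Values are the authors' normalised read counts. Whether more than library depth entered the scaling could not be told from them. They summed to 24.4 to 27.2 M normalised reads per library. The size of the smallest steps in the values put the reads behind a library at about 16.8 to 33.4 M, an estimate only, since whole reads could not be recovered. Otx2 mRNA, which the degron does not target, stood at 1476 to 3699 in the 6 vehicle libraries of EPI and PS and at 8625 to 12385 in those of DE1 and DE2. With dTAG13 it stood at 1708 to 3268 and at 10553 to 13790. By stage it was higher with dTAG13, without overlap, in EPI (2302 to 2949 against 1476 to 1817) and DE1 (12024 to 13790 against 8656 to 10972). In DE2 it was higher in each line and in PS lower in each line, with overlap at both. The mRNA gives no check of the depletion of the protein. Summed levels of 4 epiblast markers (Pou5f1, Utf1, Sox3, Nanog) were 28943 to 52514 in EPI and PS vehicle libraries and 2241 to 2793 in DE1, and 4 endoderm markers (Sox17, Foxa2, Cxcr4, Gata6) rose from 542 to 1923 in EPI to 33811 to 37527 in DE1. Marker sums of neural cells (at most 149 over 5 genes) and visceral endoderm (at most 383 over 6 genes) were low in all libraries. Within them, limma called 3 of 4 tested visceral endoderm markers lower and 1 of 2 neural markers higher with dTAG13 in DE2. Over all tested genes 17% were called there. The other tested visceral endoderm marker, Rhox5, was not called and stood higher with dTAG13 in each line. In 7H, 7H1 and 7H2 of DE2 it was at 146, 128 and 96.6 with DMSO and 302, 368 and 147 with dTAG13. Mesoderm markers exceeded 350 only in PS, where they summed to 1518 to 3522 with DMSO and 569 to 1440.0 with dTAG13. Mesp1 was the largest part of these sums. Msgn1 went against them, at 41.6 to 69.3 with DMSO and 129 to 185 with dTAG13. None of the 8 mesoderm markers was called in PS, where 0.219% of all tested genes were called. The DE2 vehicle library of line 7H2 had the highest epiblast marker sum of its group, 10268 against 5772 in 7H and 2220.1 in 7H1. The treated 7H2 library of DE2 was likewise highest in Pou5f1 (1874 against 889 and 367), Utf1 and Nanog, but lowest in Sox3. DE2 results of the 10 genes are given in both ways where the call changes without that vehicle library. So are those whose called value moves by over 1.5 times. Leaving it out, a choice made after seeing the data, leaves the treated 7H2 library without its pair. Line 7H1 stood apart in EPI, with streak markers at 5941 in its vehicle library against 2178 in 7H and 3390.2 in 7H2. In these bulk samples fewer cells of a type and less RNA per cell cannot be told apart.

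The 250 bases upstream of the RefSeq start of Fgf4, Fgf5 and Fgf10 are printed. These ligand genes passed the test with dTAG13 in DE2, Fgf4 and Fgf5 downward and Fgf10 upward. Fgf15 passed it too, downward, but had no window among those of RefSeq used here. The windows come from RefSeq on build GRCm38.p6, plus strand, at chr7:144861136-144861385, chr5:98253934-98254183 and chr13:118714449-118714698. Those of Fgf4 and Fgf10 lie inside the annotated gene spans given below, which begin farther upstream at 144847367 and 118669791. No other start of these genes was searched. Capitals mark GGGCGG or its reverse complement CCGCCC, the core of the GC box bound by SP and KLF factors, a motif chosen after the windows were seen.
Fgf4: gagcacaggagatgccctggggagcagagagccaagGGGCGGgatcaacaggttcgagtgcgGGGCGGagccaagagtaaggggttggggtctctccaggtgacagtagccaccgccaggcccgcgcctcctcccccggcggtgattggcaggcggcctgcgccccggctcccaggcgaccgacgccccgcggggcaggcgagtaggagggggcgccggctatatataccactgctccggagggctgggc
Fgf5: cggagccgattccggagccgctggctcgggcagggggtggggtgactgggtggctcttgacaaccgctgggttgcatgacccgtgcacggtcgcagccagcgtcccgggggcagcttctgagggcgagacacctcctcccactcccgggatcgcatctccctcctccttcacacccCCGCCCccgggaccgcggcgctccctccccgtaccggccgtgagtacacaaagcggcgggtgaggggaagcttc
Fgf10: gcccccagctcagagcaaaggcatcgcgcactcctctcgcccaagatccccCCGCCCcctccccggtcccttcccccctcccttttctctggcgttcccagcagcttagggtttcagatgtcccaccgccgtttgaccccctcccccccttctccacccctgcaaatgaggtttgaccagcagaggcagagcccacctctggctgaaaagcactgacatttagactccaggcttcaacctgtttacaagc

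The Fgf4 window held 2 GC boxes, first base at -214 and -188 from the start, the Fgf5 window 1 at -74 and the Fgf10 window 1 at -199; 32.7% of all 32851 windows held this motif in the 250 bases upstream. The full windows of 300 bases, with 50 bases past the start, were 69.7% G and C with 28 CpG for Fgf4, 68.3% with 29 CpG for Fgf5 and 60.7% with 10 CpG for Fgf10, where the medians over all windows were 52.7% and 7. TAATCC and its reverse complement GGATTA, the letters read by bicoid-class homeodomains such as that of OTX2, were searched in the 7 full windows of the 6 members in the RefSeq table (Fgf4, Fgf5, Fgf10, Fgfr2, Fgfr4 and 2 starts of Fgfr3). None of the 7 held them, and 7.06% of all windows did. This says only that those letters are not in these windows.

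Along the vehicle libraries the FGF genes fell into early and late patterns. Fgf4, Fgf15 and Fgf17 were low in DE1, Fgf8 and Fgf10 were highest in DE1, Fgf5 climbed to DE1 and stayed high, and the receptors moved from nearly all Fgfr1 in EPI and PS to a mix of Fgfr1 and Fgfr2 in DE2. A gene was called, with rose or fell used for called genes only, where limma on log2(normalised count + 1) gave a Benjamini-Hochberg adjusted p under 0.05 over the 15037 genes tested. From EPI to PS 3 members rose and 1 fell, where 27.5% of all tested genes were called (14.6% higher, 12.8% lower). From PS to DE1 3 rose and 4 fell (44.1% of all genes, 21.7% higher and 22.4% lower), and from DE1 to DE2 4 rose and 2 fell (39.3%, 20.2% higher and 19.1% lower). The share of members called was above that of all genes in each step. That difference was not tested, and the members were chosen with earlier results of these data known. All 10 members passed the filter on low values. Successive steps share the libraries of the stage between them.

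Fgf4, the epiblast ligand (ENSMUSG00000050917, chr7:144847367-144865243 on mm10, plus strand), stood at 1032, 458 and 741 in the vehicle EPI libraries of 7H, 7H1 and 7H2, in that order here and below. It was at 87.3, 167 and 184 in PS, at 1.13, 4.26 and 4.93 in DE1 and at 63.1, 16.5 and 194 in DE2. The groups of successive stages did not overlap, and the spread between lines was wide in EPI and wider in DE2. Fgf4 fell from EPI to PS (log2 fold change -2.33, SE 0.69, adjusted p = 0.0153) and from PS to DE1 (-5.11, adjusted p = 4.23e-06) and rose to DE2 (3.90, adjusted p = 0.000137). Without the DE2 vehicle library of 7H2 the rise of Fgf4 was 3.05 (adjusted p = 0.0015). The first of these calls was lost without line 7H (adjusted p = 0.214) and without 7H2 (0.0792).

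Fgf15 (ENSMUSG00000031073, chr7:144896531-144900953, plus strand) begins 31.3 kb beyond the end of Fgf4 and followed a like course. Its vehicle values were 336, 295 and 339 in EPI, 91.2, 160 and 151 in PS, 0, 6.86 and 6.55 in DE1 and 25.8, 32.1 and 226 in DE2. The 3 EPI values were close together, the DE1 values near 0, and in DE2 line 7H2 stood far above the others. Fgf15 fell from PS to DE1 (log2 fold change -5.07, SE 0.86, adjusted p = 6.67e-05) and rose from DE1 to DE2 (3.91, adjusted p = 0.00112), by 2.93 without the DE2 vehicle library of 7H2 (adjusted p = 0.0122). Its step from EPI to PS was not called (-1.30, adjusted p = 0.279), though the groups did not overlap, and was called when only the libraries of that step set the spread (adjusted p = 0.00762). Over the 24 libraries Fgf4 and Fgf15 had a Pearson r of 0.925 on the log2 scale, the highest among the pairs of members, with stage shared by the libraries.

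Fgf17 (ENSMUSG00000022101, chr14:70636203-70642268, minus strand) also dropped to near 0 at DE1. It stood at 96.2, 128 and 50.5 in EPI and 151, 184 and 225 in PS, then at 4.53, 8.58 and 5.72 in DE1, and DE2 values were 4.16, 0 and 19. EPI and PS values did not overlap but were within a few fold of each other, and DE1 and DE2 values were both near the floor. The fall from PS to DE1 was called (log2 fold change -4.71, SE 0.98, adjusted p = 0.000593) and the other steps were not (adjusted p = 0.44 and 0.67).

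Fgf5, the marker ligand of the primed epiblast (ENSMUSG00000029337, chr5:98254184-98277030, plus strand), was high throughout. It stood at 4452, 6881 and 5192 in EPI, 9545, 9483 and 9782 in PS, 16998, 17783 and 17759 in DE1 and 14317, 19409 and 16269 in DE2. PS was above EPI and DE1 above PS in every library, and DE1 and DE2 overlapped. Fgf5 rose in the first step (log2 fold change 0.83, SE 0.21, adjusted p = 0.00655) and the next (0.87, adjusted p = 0.00231), and its step to DE2 was not called (-0.08, adjusted p = 0.793). Without line 7H2 the calls of the first and next step were lost (adjusted p = 0.154 and 0.0591), and without 7H that of the first (0.0517).

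Fgf8, the streak ligand that drives cells out of the primitive streak (ENSMUSG00000025219, chr19:45736798-45742915, minus strand), stood at 222, 1362 and 508 in EPI, 5229, 5407 and 6078 in PS, 9952, 10629 and 9689 in DE1 and 1804, 2563 and 1837 in DE2. Line 7H1 was the highest in EPI, where it also had the highest streak marker sum. Fgf8 rose from EPI to PS (log2 fold change 3.37, SE 0.57, adjusted p = 0.000308) and fell from DE1 to DE2 (-2.30, adjusted p = 0.00353). Both calls were lost without line 7H2 (adjusted p = 0.0553 and 0.0971). From PS to DE1 all DE1 values were above all PS values, 1.81-fold in the means. That step was not called (0.86, adjusted p = 0.236) with the spread of all groups, EPI included, and was called with that of its own groups (adjusted p = 8.1e-05).

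Fgf10 (ENSMUSG00000021732, chr13:118669791-118792115, plus strand) was the lowest of the 6 ligand genes per kb of exon in EPI and rose in both steps to DE1. It stood at 42.9, 32.6 and 35 in EPI, 231, 313 and 343 in PS, 3099, 3390 and 3574 in DE1 and 880.1, 1126 and 618 in DE2. The groups of successive stages did not overlap. It rose 8.03-fold from EPI to PS (log2 fold change 2.96, SE 0.30, adjusted p = 4.25e-07) and 11.3-fold from PS to DE1 (3.52, adjusted p = 9.84e-09), and fell 3.84-fold from DE1 to DE2 (-1.98, adjusted p = 2.82e-05).

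Among the receptors, Fgfr1, through which epiblast cells receive FGF4 and FGF8 (ENSMUSG00000031565, chr8:25513654-25575718, plus strand), stood at 4653, 5003 and 4841 in EPI, 5817, 4864 and 5029 in PS, 1623, 1095 and 1206 in DE1 and 2527, 1235 and 2418 in DE2. It fell from PS to DE1 (log2 fold change -2.02, SE 0.20, adjusted p = 7.63e-08), 4.0-fold in the means. It rose from DE1 to DE2 (0.61, adjusted p = 0.0197), but 7H1 hardly differed between these stages, and the call was lost without line 7H (0.0634), without 7H2 (0.339) and without the DE2 vehicle library of 7H2 alone (0.112).

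Fgfr2, whose b isoform is the epithelial receptor of FGF10 (ENSMUSG00000030849, chr7:130162451-133123350, minus strand), went the other way. It stood at 87.2, 104 and 78.1 in EPI, 241, 99.8 and 131 in PS, 399, 487 and 507 in DE1 and 1519, 1760.4 and 1365 in DE2. EPI and PS overlapped, and each later stage was above the stage before it. From EPI to PS it was not called (log2 fold change 0.71, SE 0.32, adjusted p = 0.109), but without line 7H1 it was (1.10, adjusted p = 0.0433). Fgfr2 rose from PS to DE1 (1.65, adjusted p = 0.000309) and from DE1 to DE2 (1.74, adjusted p = 0.000247). The table counts genes and does not separate the b and c isoforms of the receptors.

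Fgfr3 (ENSMUSG00000054252, chr5:33721674-33737068, plus strand) was low in vehicle cells, at 47.6, 37.8 and 44.4 in EPI, 23.6, 17.8 and 8.54 in PS, 11.4, 4.25 and 30.7 in DE1 and 3.23, 45.8 and 59.1 in DE2. Fgfr4 (ENSMUSG00000005320, chr13:55152640-55168759, plus strand) was also low, at most 38.4 in the vehicle libraries, and overlapped Fgfr3 per kb of exon at each vehicle stage. Neither was called in any vehicle step.

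**Figure D1:**
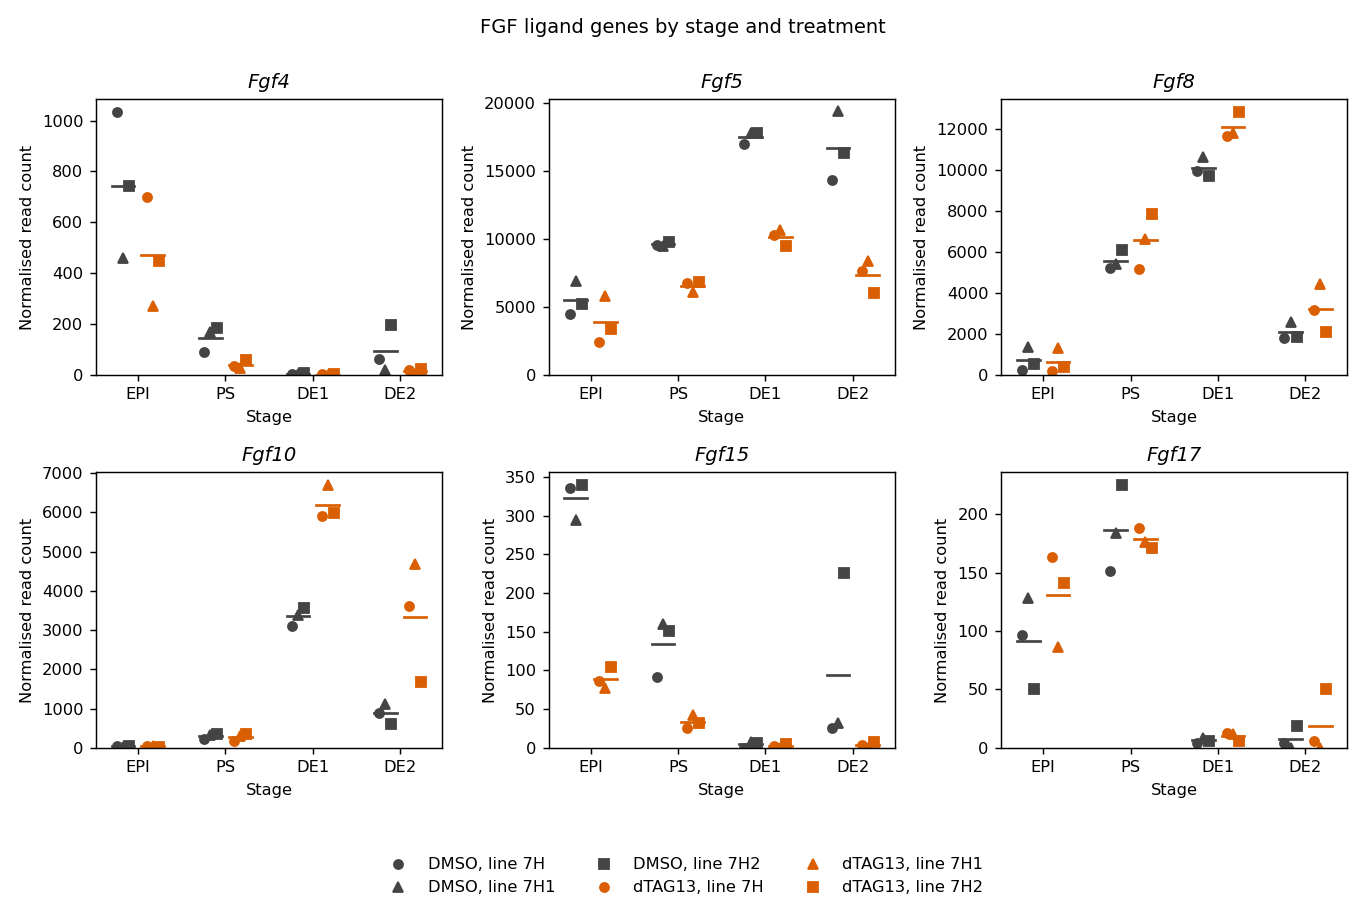
Normalised read count (linear axis from 0, its own range per panel) of the 6 FGF ligand genes at each stage, for DMSO (grey) and dTAG13 (orange). Each point is 1 library, its shape gives the cell line, and bars are group means of 3; Fgf10 with dTAG13 stands above DMSO in DE1 and DE2, Fgf5 below it in PS, DE1 and DE2, and the Fgf4 and Fgf15 means of DE2 DMSO are pulled up by line 7H2.

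Levels of different genes were compared per kb of merged exon, which counts every annotated isoform and so can misplace genes with many. In EPI vehicle cells Fgf5 was the highest ligand gene at 2202 ± 498 per kb (SD, n = 3), followed by Fgf8 at 516 ± 439 and Fgf4 at 233 ± 89.9, and these last genes overlapped. Fgf15 came next at 106 ± 8.03, then Fgf17 at 54.2 ± 23 and Fgf10 at 8.01 ± 1.17. In PS Fgf8 (4127 ± 332) and Fgf5 (3840 ± 63.1) overlapped at the top. In DE1 Fgf8 (7474 ± 359) lay just above Fgf5 (7003 ± 179), with no overlap, and Fgf10 followed at 729 ± 52.1. In DE2 Fgf5 led at 6663 ± 1027, Fgf8 stood at 1532 ± 318 and Fgf10 at 190 ± 55.1, while Fgf15, Fgf4 and Fgf17 overlapped with each other at means of at most 30.9.

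With dTAG13 no FGF gene passed the threshold in EPI or PS, and several did in endoderm. In DE2 Fgf5, Fgf4, Fgf15 and Fgfr2 fell and Fgf10 and Fgfr3 rose, and in DE1 Fgf5 and Fgfr2 fell. The count of members called was 0 of 10 in EPI (0.0865% of all tested genes were called) and 0 of 10 in PS (0.219%), with 2 and 4 members at an unadjusted p under 0.05. It was 2 of 10 in DE1, both lower (7.76% of all genes, 3.74% higher and 4.02% lower), and 6 of 10 in DE2, 2 higher and 4 lower (17%, 8.65% higher and 8.31% lower). Treated and vehicle values did not overlap for 1 member in EPI (8.24% of all genes), 4 in PS (12.6%), 7 in DE1 (33.1%) and 5 in DE2 (31.7%). The dTAG13 comparisons share no library with each other. The cell line links each treated library to its own control, and with the line as a block in the fit 1 member was called in EPI, 3 in PS, 6 in DE1 and 8 in DE2, against 0.572%, 2.41%, 15.8% and 27.5% of all genes. The median log2 fold change over the 10 members was -0.21 in EPI, -0.35 in PS, -0.17 in DE1 and 0.56 in DE2. That of all tested genes was -0.013 in EPI and closer to 0 at the other stages.

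**Figure D2:**
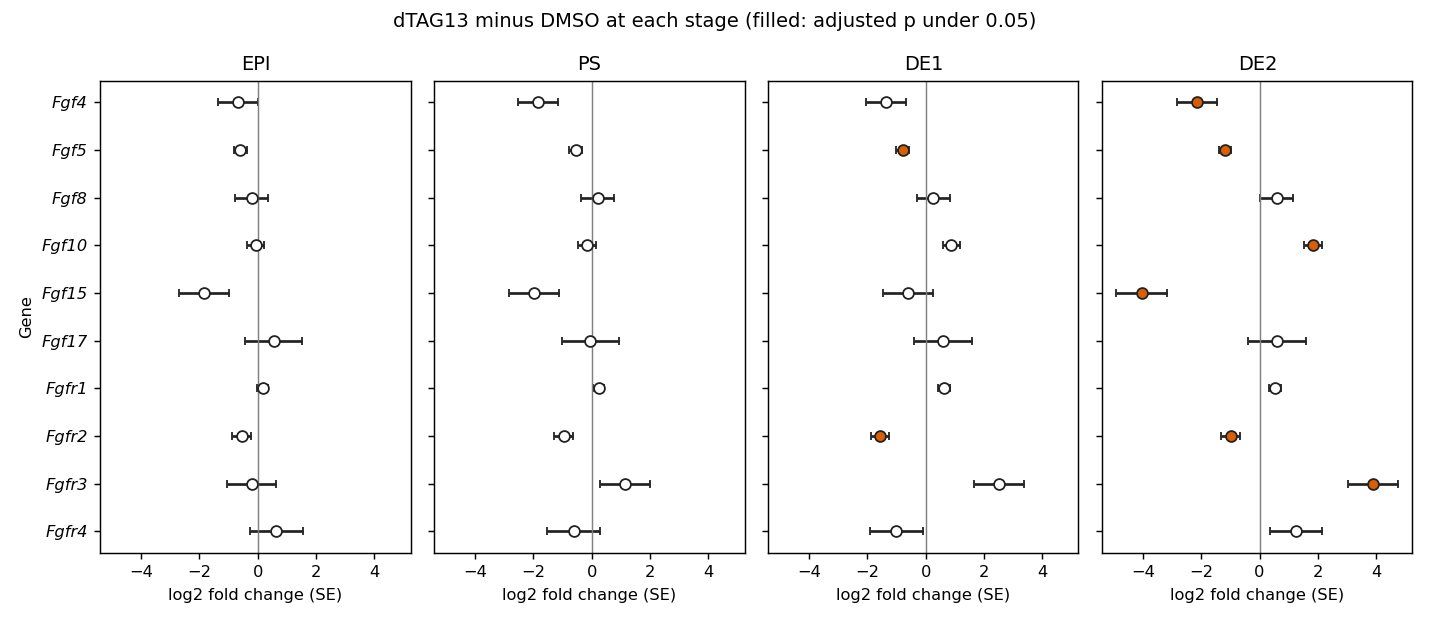
Log2 fold change of dTAG13 against DMSO (limma, horizontal bars are 1 SE) for each of the 10 genes at each stage, with called genes filled. Filled points stand in DE1 (Fgf5 -0.79, Fgfr2 -1.57) and DE2 (6 genes, from Fgf15 at -4.06 to Fgfr3 at 3.91), and the widest bars belong to genes with low counts.

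Fgf5 was lower with dTAG13 in every line at every stage. In DE2 it stood at 7611, 8371 and 6025 with dTAG13, against 14317, 19409 and 16269 with DMSO, and in DE1 at 10262, 10635 and 9487 against 16998, 17783 and 17759. In PS the treated values were 6745, 6101 and 6826 and in EPI 2382, 5813 and 3336. The groups did not overlap in PS, DE1 and DE2 and overlapped in EPI. Fgf5 fell 2.27-fold in DE2 (log2 fold change -1.19, SE 0.21, adjusted p = 0.00045) and 1.73-fold in DE1 (-0.79, adjusted p = 0.0227). In PS (-0.55, adjusted p = 0.477) and EPI (-0.59, adjusted p = 0.904) it was not called, and with the line as a block it was called at both (0.0168 and 0.0271). The DE1 call was lost without line 7H (adjusted p = 0.0606) or 7H2 (0.345), and the DE2 call without 7H2 (0.0623).

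Fgf10 was higher with dTAG13 in endoderm. In DE2 the treated libraries stood at 3626, 4674 and 1668, against 880.1, 1126 and 618, and in DE1 at 5896, 6688 and 5987, against 3099, 3390 and 3574. Every treated value was above every vehicle value at both stages, and 7H2 was the lowest of both DE2 groups. Fgf10 rose 3.80-fold in DE2 (log2 fold change 1.84, SE 0.30, adjusted p = 0.000157), a call that held without each line and without the DE2 vehicle library of 7H2. The DE1 difference was 1.85-fold and was not called with the spread of all groups (0.88, adjusted p = 0.0792), but was called with the line as a block (0.000786). In EPI the treated values were 37.5, 36.6 and 31.1 and in PS 168, 298 and 361, overlapping those of the vehicle (log2 fold changes -0.07 and -0.15). Summed streak markers moved with Fgf10 in DE1, at 13517 to 14516 with DMSO and 21024 to 24574 with dTAG13. In DE2 these sums overlapped (3962 to 5508 and 4735 to 8036), and summed endoderm markers stood lower with dTAG13 in both (20380.0 to 23465 against 33811 to 37527 in DE1, 10331 to 14305 against 19607 to 32914 in DE2). Foxa2 went against that sum in DE1, at 4556, 4157 and 4300 with DMSO and 8025, 7510 and 8188 after treatment (log2 fold change 0.87, adjusted p = 0.55, or 0.000179 with the line as a block), and overlapped in DE2, while Sox17, Cxcr4 and Gata6 stood lower in every treated library of both stages. Their part in the result was not tested.

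Fgf4 was lower with dTAG13 in every line at every stage. In EPI it stood at 698, 269 and 446 with dTAG13, in PS at 35.6, 27.8 and 56.2 and in DE2 at 18, 4.68 and 21.5, against the vehicle values above. In DE1 it was at 0.907, 0 and 1.01 after treatment, so all 6 DE1 libraries were below 5. Values overlapped in EPI and in DE2, where the treated 7H and 7H2 libraries lay just above the vehicle 7H1 library, and not in PS. Fgf4 fell in DE2 (log2 fold change -2.17, SE 0.69, adjusted p = 0.0337), but the call was lost without the DE2 vehicle library of 7H2 (-1.32, adjusted p = 0.222) and without line 7H (0.129). It was not called in PS, where the means differed 3.66-fold (-1.84, adjusted p = 0.468), nor in DE1 (-1.37, adjusted p = 0.277). Both were called with the line as a block (0.0405 and 0.0458).

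Fgf15, the neighbour of Fgf4, was also lower with dTAG13 in EPI, PS and DE2. It stood at 86.1, 77.1 and 105 in treated EPI libraries, where the vehicle values were 336, 295 and 339, and at 25.4, 43 and 31.5 in treated PS libraries, where they were 91.2, 160 and 151. In DE2 it stood at 4, 0 and 7.72, against 25.8, 32.1 and 226. The groups did not overlap at these 3 stages. Fgf15 fell in DE2 (log2 fold change -4.06, SE 0.86, adjusted p = 0.00209), and without the DE2 vehicle library of 7H2 the change was -3.08 (adjusted p = 0.02). In EPI the means differed 3.62-fold and in PS 4.03-fold, but neither was called (adjusted p = 1 and 0.551), nor with the line as a block (0.401 and 0.151). The fit takes 1 spread for the gene from all groups, including DE1, where its values lay between 0 and 6.86; with the spread of the EPI libraries alone, its SE in EPI was 0.21 and the adjusted p = 0.0961.

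**Figure D3:**
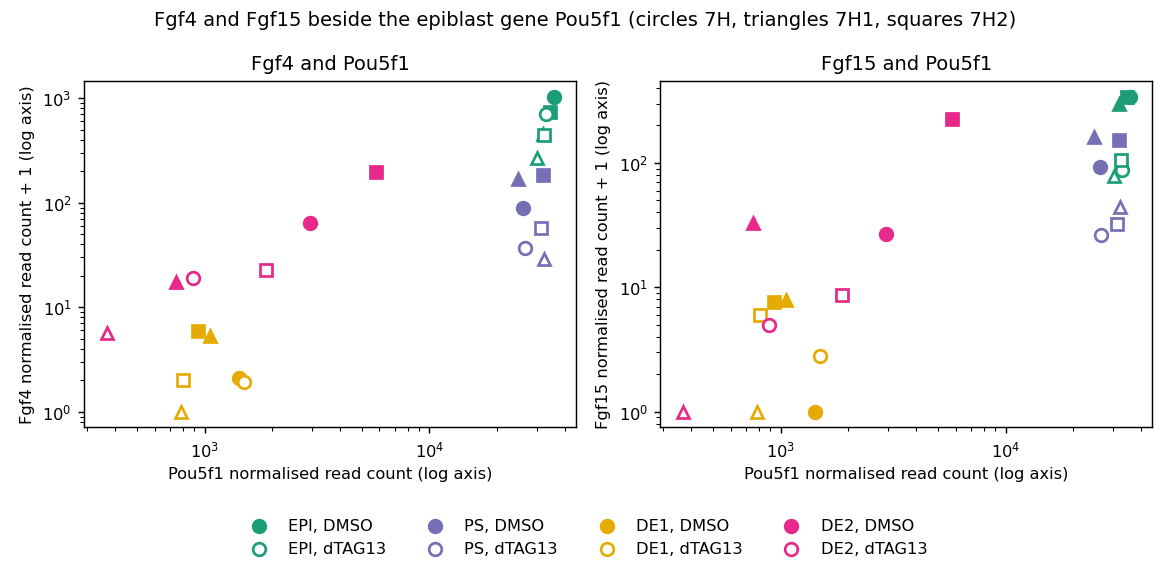
Normalised read count + 1 of Fgf4 (left) and Fgf15 (right) against the normalised read count of the epiblast gene Pou5f1 in the 24 libraries (both axes logarithmic), coloured by stage, filled for DMSO and open for dTAG13. In the DE2 vehicle group line 7H2 (square) is highest on both axes, with Pou5f1 at 5796 against 2941 in 7H and 749 in 7H1. In EPI and PS Fgf15 is lower with dTAG13. Pou5f1 lies there between 24691 and 35801 with DMSO and between 26682 and 33096 with dTAG13, lower with dTAG13 in each line of EPI.

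Pou5f1, which encodes the epiblast factor OCT4, stood beside these values in DE2, where its vehicle values were 2941, 749 and 5796 and its treated values 889, 367 and 1874, lower in every line. The other epiblast markers did not all follow it in DE2. Sox3 rose from 1452, 912 and 1327 to 3836, 4282 and 1720 (log2 fold change 1.34, adjusted p = 0.0133), Nanog stood at 218, 90.5 and 573 with DMSO and at 142 in both 7H and 7H1 and 628 in 7H2 after treatment, and Utf1 at 1162, 469 and 2572 before and 625, 626 and 816 after. The summed levels of the 4 overlapped, at 2220.1 to 10268 with DMSO and 5038 to 5492 with dTAG13. In EPI the Pou5f1 vehicle values were 35801, 31876 and 34538 and the treated values 33096, 30256 and 32473, lower in each line. In PS they were 26175, 24691 and 31972 before and 26682, 32432 and 31412 after treatment, overlapping at both of these stages. The part of remaining epiblast-like cells in the DE2 values of Fgf4 and Fgf15 was not tested.

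Fgf8 was not called at any stage. It stood at 191, 1306 and 397 in treated EPI libraries, 5158, 6642 and 7845 in PS, 11622, 11794 and 12809 in DE1 and 3174, 4425 and 2084 in DE2. In DE1 every treated value was above every vehicle value, 1.20-fold in the means, and in DE2 the values overlapped but each line was higher with dTAG13, 1.56-fold in the means. The DE2 log2 fold change was 0.59 (SE 0.57, adjusted p = 0.549), or adjusted p = 0.0017 with the line as a block, and line 7H1 was the highest in both groups. Fgf17 stood at 164, 86.3 and 141 in treated EPI libraries and 188, 176 and 171 in PS, overlapping the vehicle values, and at most 12.7 in DE1 and 50.2 in DE2. It was not called at any stage in either fit.

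Fgfr2 was the receptor gene that fell with dTAG13. In DE1 the treated libraries stood at 124, 179 and 167, against 399, 487 and 507 with DMSO, and in DE2 at 764, 682 and 893, against 1519, 1760.4 and 1365. The groups did not overlap at either stage. Fgfr2 fell 2.96-fold in DE1 (log2 fold change -1.57, SE 0.32, adjusted p = 0.00335) and 1.99-fold in DE2 (-0.99, adjusted p = 0.0399). The DE1 call was lost without line 7H2 (adjusted p = 0.0658), and the DE2 call without any of the 3 lines (0.131 without 7H, 0.23 without 7H1, 0.0863 without 7H2) and without the DE2 vehicle library of 7H2 (0.0609). In PS it stood at 100.4, 55.8 and 74.8 after treatment, lower in each line (-0.96, adjusted p = 0.378, or 0.029 with the line as a block). In EPI it stood at 67.2, 98.3 and 33.8 and was called in neither fit.

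Fgfr3, a receptor known for restraining bone growth, was the receptor gene raised in DE2. It stood at 249, 273 and 591 with dTAG13, against 3.23, 45.8 and 59.1 with DMSO, so every treated value was several-fold above every vehicle value. It rose 10.3-fold in the means (log2 fold change 3.91, SE 0.86, adjusted p = 0.0028), a call that held without each line and without the DE2 vehicle library of 7H2 (4.61, adjusted p = 0.00167). In DE1 it stood at 125, 94.3 and 32.2, against 11.4, 4.25 and 30.7, with little difference in line 7H2. That difference was not called (2.53, adjusted p = 0.0796), or called at 0.0379 with the line as a block. In PS treated values of 63.3, 23.9 and 29.1 lay above the vehicle values of 23.6, 17.8 and 8.54, 2.33-fold in the means. The lowest treated value was just above the highest vehicle value. In EPI treated values of 71.8, 11.8 and 58.4 overlapped those of the vehicle. Neither difference was called in either fit.

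Fgfr1 stood higher with dTAG13 in each line at each stage. In DE1 it was at 2376, 1819 and 1881, against 1623, 1095 and 1206, with no overlap, and in DE2 at 3211, 2371 and 2939, against 2527, 1235 and 2418, with overlap. In EPI the treated values were 4927, 6044 and 5384 and in PS 6437, 5756 and 6285. The log2 fold change was 0.64 in DE1 (SE 0.20, adjusted p = 0.0528) and 0.52 in DE2 (adjusted p = 0.0782), just outside the threshold, and both were called with the line as a block (0.000765 and 0.00197). Without the DE2 vehicle library of 7H2 the DE2 change of Fgfr1 was called too (0.67, adjusted p = 0.0425). The values in EPI and PS, 0.17 and 0.24, were called in neither fit. Fgfr4 stood at 60.8, 51.5 and 18 in treated DE2 libraries, against 24, 11.9 and 13, and at most 40.2 in all the others. It was not called at any stage in either fit.

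**Figure D4:**
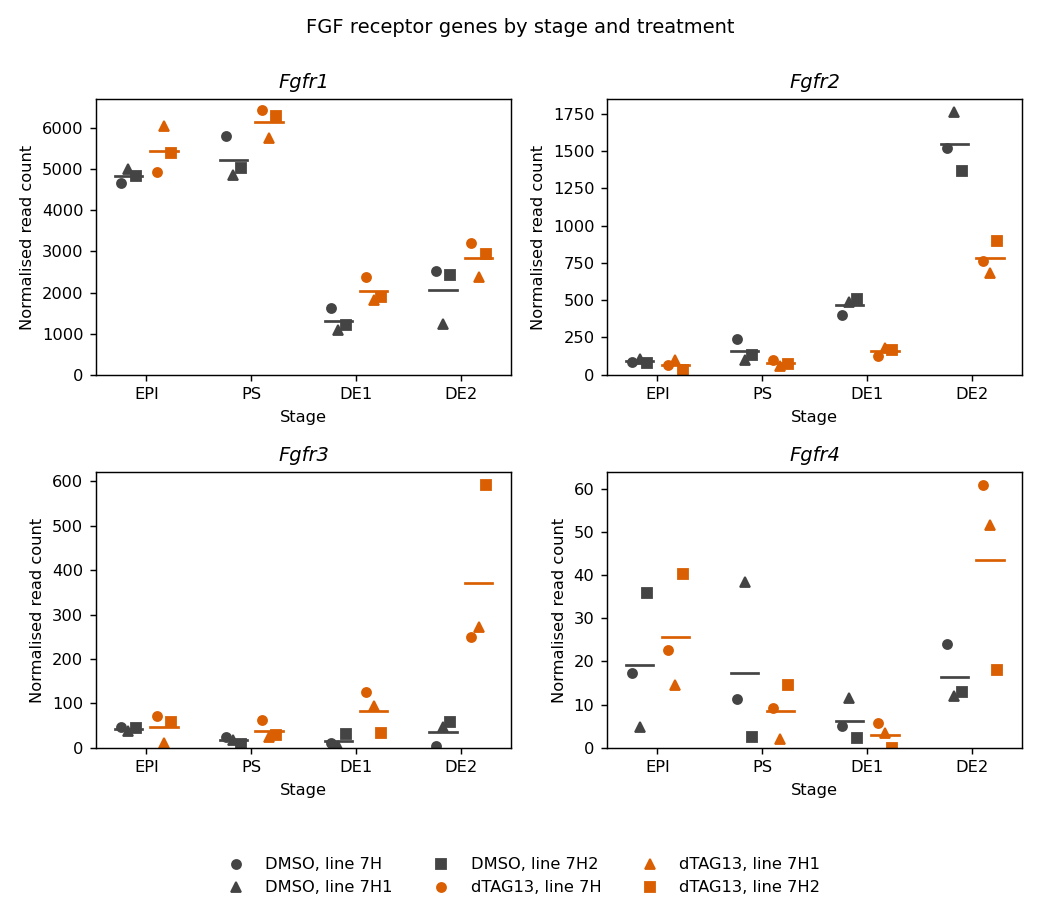
Normalised read count (linear axis from 0, its own range per panel) of the 4 FGF receptor genes by stage, for DMSO (grey) and dTAG13 (orange), with 1 point per library, shapes for cell lines and bars for group means of 3. Fgfr1 is high in EPI and PS, Fgfr2 climbs to DE2 and is lower with dTAG13, and Fgfr3 is highest in the DE2 dTAG13 libraries (249 to 591).

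Set against each other per kb, the receptor genes made up different mixes. Fgfr1 accounted for 96% ± 0.729 (SD, n = 3) of the summed receptor level in EPI vehicle cells and 96% ± 1.09 in PS. In DE1 vehicle cells Fgfr1 made up 72.5% ± 6.3 and Fgfr2 25.3% ± 5.68, and with dTAG13 88.1% ± 2.43 and 6.71% ± 1.98. In DE2 vehicle cells the shares were 55.4% ± 12.5 and 41.9% ± 12.1, and with dTAG13 67.4% ± 4.52 and 17.7% ± 1.14, with Fgfr3 at 1.44% ± 1.15 and 11.9% ± 5.03. The ranges of the Fgfr2 share did not overlap between treatments in DE1 (18.7% to 29.1% against 4.44% to 8.03%) or in DE2 (34% to 55.8% against 16.4% to 18.4%). The length of Fgfr2 is unsure, since its annotation spans a far upstream start and many partial transcripts and merges to 10328 bases. With the longest coding transcript of each receptor gene as its length (4311 bases for Fgfr2), an alternative chosen after seeing the data, the Fgfr2 share was 29.4% ± 6.36 and 8.14% ± 2.36 in DE1 and 47% ± 12.3 and 21.5% ± 1.37 in DE2 for DMSO and dTAG13, and its ranges still did not overlap between treatments. Per kb of merged exon Fgfr2 overlapped Fgfr1 in level in DE2 vehicle cells, where it was the higher gene in line 7H1.

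**Figure D5:**
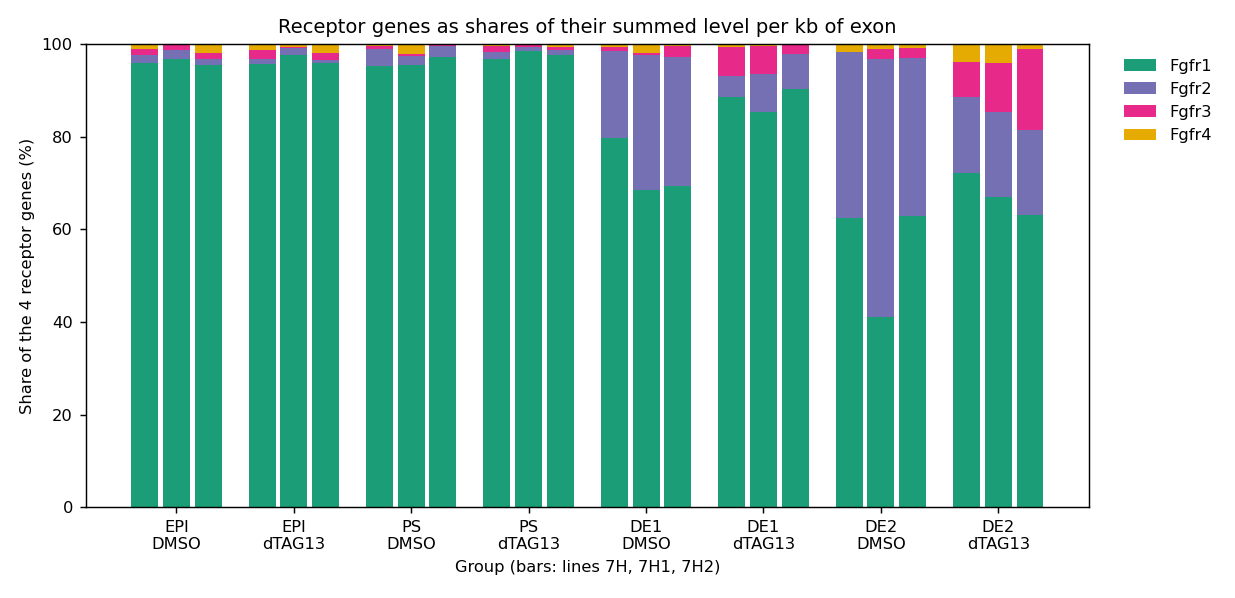
Share of each receptor gene in the summed level per kb of merged exon of Fgfr1 to Fgfr4 (%), with 1 stacked bar per library in the order 7H, 7H1, 7H2 within each group. The Fgfr2 share of DE2 runs from 34% to 55.8% with DMSO and from 16.4% to 18.4% with dTAG13, and the Fgfr3 share with dTAG13 from 7.71% to 17.5%.

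The effects of dTAG13 were also compared between stages in the same fit. No member differed between PS and EPI, DE1 and PS or DE2 and DE1 in limma (0 of 10 each, where 0.0133%, 2.14% and 5.95% of all genes were called), with 0, 1 and 2 members at an unadjusted p under 0.05. With the line as a block, the effect on Fgf10 was larger in DE1 than in PS by 1.04 (log2, SE 0.20, adjusted p = 0.00728; 0.295 without the block) and larger in DE2 than in DE1 by 0.96 (adjusted p = 0.00615; 0.207 without). The effect on Fgf15 was more negative in DE2 than in DE1 by -3.46 (adjusted p = 0.0246; 0.1 without), and in DE1 the gene was near 0 in both groups. With the block 6.34% of all genes differed between DE1 and PS and 15% between DE2 and DE1. For Fgf5, lower at all 4 stages, the differences in effect between successive stages were 0.04, -0.24 and -0.39 (SE 0.30 each) and were called in neither fit.

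The other genes of the pathway were read from 5 lists. Among 12 further secreted FGF genes 10 were in the table and 7 passed the filter on low values; Fgf6 and Fgf20 were not analysed here. In DE1 1 of the 7 rose and 1 fell, and in DE2 2 rose and 0 fell, against 7.76% and 17% of all tested genes called. The median log2 fold change of the 7 was -0.65 in DE1 and 0.64 in DE2. Fgf16 was at 32.8, 50.5 and 30.2 with DMSO in DE1 and listed at 0 in all 3 treated libraries (adjusted p = 1.44e-05), and in DE2 it was at 28.2, 29.9 and 9.08 with DMSO and 40.9, 21.6 and 35.5 with dTAG13. Fgf18 rose in DE1 from values of 0, 1.91 and 1.77 to 9.72, 8.58 and 5.78 (adjusted p = 0.0178). The dTAG13 effect on Fgf16 was more negative in DE1 than in DE2 (adjusted p = 0.000626). Fgf3, a further gene of the Fgf4 and Fgf15 cluster, rose in DE2 from 4.27, 0 and 0 to 10.3, 19.5 and 18.8 (adjusted p = 0.001), and Fgf1 from 1.99, 0 and 3.9 to 30.7, 12.3 and 56.9 (adjusted p = 0.028). These genes were low, at under 60 in each of the libraries named. In PS, where Fgf3 was highest, it stood at 253, 530.0 and 885 with DMSO and 56.5, 92.5 and 205 with dTAG13, with no overlap and no call (log2 fold change -2.25, adjusted p = 0.204, or 0.0554 with the line as a block). None of the 7 was called in EPI or PS, where 0 and 2 had an unadjusted p under 0.05. Of 4 intracellular FGF genes, which do not signal through FGF receptors, 3 were tested and none was called by limma at any stage, with 0, 1, 1 and 2 at an unadjusted p under 0.05 in EPI, PS, DE1 and DE2. With the line as a block Fgf13 was called lower in DE1 (-1.28, adjusted p = 0.008) and Fgf11 in DE2 (-1.01, adjusted p = 0.0104).

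Of 26 genes for co-receptors, heparan sulphate and receptor modulators 24 were tested. In EPI 0 rose and 1 fell, in PS 0 were called (4 at an unadjusted p under 0.05), in DE1 4 rose and 2 fell and in DE2 7 rose and 5 fell, with a median log2 fold change of 0.15 in DE1 and -0.00 in DE2. Over all tested genes 0.0865% were called in EPI, 0.219% in PS, 7.76% in DE1 and 17% in DE2. With the line as a block 1 rose and 3 fell in PS, 6 rose and 4 fell in DE1 and 9 rose and 6 fell in DE2. In that fit 2.41%, 15.8% and 27.5% of all tested genes were called at these stages. Shisa2, whose product holds back the maturation of FGF and WNT receptors, was the member called in EPI, where it fell from 267, 254 and 323 to 115, 125 and 120 (log2 fold change -1.22, SE 0.22, adjusted p = 0.0308). In DE1 it fell from 9093, 11133 and 11801 to 1593, 2023 and 2027 (-2.51, adjusted p = 1.5e-07), and in DE2 from 10225, 14097 and 8128 to 1540.0, 1561 and 1484 (-2.79, adjusted p = 1.89e-08). Treated and vehicle values were far apart at both stages. Sulf2, an enzyme that trims sulphate from heparan sulphate, rose in DE1 from 3556, 2731 and 3281 to 7034, 7197 and 6495 (1.12, adjusted p = 4.94e-05) and in DE2 from 3197, 1743 and 2568 to 7722, 7196 and 8130 (1.66, adjusted p = 1.45e-07).

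Of 17 genes of the receptor-proximal and RAS to ERK cascade, all tested, none was called in EPI, PS or DE1 in limma (1, 1 and 6 at an unadjusted p under 0.05), and 1 rose and 1 fell in DE2. With the line as a block 3 of the 17 fell in DE1, and 4 rose and 2 fell in DE2, where 15.8% and 27.5% of all genes were called in that fit. The adaptor Gab1 rose in DE2 from 2720.0, 3101 and 2644 to 4915, 5152 and 5237 (log2 fold change 0.86, SE 0.14, adjusted p = 0.000199). The receptor substrate Frs2 fell from 1859, 2101 and 2184 to 1361, 1179 and 1632 (-0.57, adjusted p = 0.0101). Of 14 ERK feedback and target genes none was called in EPI or PS (5 and 2 at an unadjusted p under 0.05), 1 rose and 1 fell in DE1, and 2 rose and 4 fell in DE2, against 7.76% and 17% of all genes (8.65% higher and 8.31% lower in DE2). The median log2 fold change of the 14 was 0.17 in DE1 and -0.20 in DE2. Spred2, an inhibitor of RAS activation, fell in DE1 from 2772, 2429 and 2974 to 1755, 1635 and 1418 (-0.77, adjusted p = 0.000185). Spry1, a feedback inhibitor induced by FGF, rose in DE1 (0.53, adjusted p = 0.0371) and in DE2, there from 1501, 1095 and 1209 to 3267, 3747 and 3242 (1.44, adjusted p = 1.08e-06). Etv5, a transcription factor gene induced by ERK, fell in DE2 from 2504, 2134 and 3471 to 565, 196 and 944 (-2.49, adjusted p = 3.31e-05). The feedback genes called in DE2 thus stood in both directions. With the line as a block the counts were 6 higher and 2 lower in DE1 and 4 higher and 5 lower in DE2. In that fit 1 and 2 were higher in EPI and PS, where 0.572% and 2.41% of all genes were called.

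The genes most like each member in pattern were found by Pearson's r over the 24 libraries among 11375 tested genes with a mean of at least 50, as a description, since stage sets most of these patterns. Closest to Fgf4 were Ermp1 (r = 0.949) and the epiblast factor gene Foxd3 (0.942), to Fgf17 the pluripotency gene Nanog (0.958) and Aldh4a1 (0.942), and to Fgf15 Tmem59l (0.896) and Mybl2 (0.879). Closest to Fgf8 were Six2 (0.972) and the streak and endoderm factor gene Eomes (0.959), to Fgf10 Ccni (0.981) and Mogat2 (0.977), and to Fgf5 Arid3c and Sall4 (0.932 each). Closest to Fgfr1 were Epha1 (0.966) and Mcc (0.964), to Fgfr2 the fibronectin receptor gene Itga5 (0.957) and Fam171a1 (0.948), and to Fgfr3 Gpr137b (0.793) and Rgl3 (0.772). Fgfr4 was too low for this comparison.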

How the data were processed

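Deposited values were the authors' normalised read counts per gene, held here as a normalised signal. Whether they were scaled for more than library depth could not be told. Build mm10 and DESeq2 are named, without versions, in the submitters' processing notes. The sources used here give no aligner, counter or strand setting, and reads of overlapping or antisense genes cannot be told apart. The share of low values within 0.1 of whole reads was 55.4% to 72.4% per library, which did not allow counts to be recovered, and no count test was run. Of 18205 gene IDs 18116 were in the GENCODE M21 annotation, which gave coordinates and merged exon lengths; 1 missing symbol, T, was filled from it.

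Groups, lines and treatments came from the sample labels. The 15037 genes that reached 10 in 3 or more libraries were fitted in limma 3.58.1 (R 4.3.3, statmod 1.5.0) on log2(value + 1) in 1 model of 8 groups with a trended, robust prior (16 residual degrees of freedom, median total 21). Tests were two-sided, with Benjamini-Hochberg adjustment over all tested genes of a comparison and a threshold of 0.05. Fold changes on this scale understate those of low genes, and fold values named as of the means are ratios of mean normalised counts. The script was tested on simulated data before use. Tables and figures used Python 3.11.15, pandas 2.3.3, numpy 2.4.6 and matplotlib 3.10.9. The replicates carry the same line names in each group, so treated and vehicle libraries are paired by cell line. Checked on deviations from group means, each of the 12 vehicle libraries correlated best with the treated library of its own line (r from 0.0703 to 0.381). The fit with the line as a block within stage was an alternative to the fit without it. The other alternatives were pseudocounts of 0.5 and 5, no filter or a filter at 50, quantile normalisation, equal totals, no trend, the groups of a comparison alone, and leaving out each line. The genes, lists and tests were chosen with earlier results of these data known. All 10 genes are named; from each other list at most 2 genes per comparison are named, those with the smallest p, and for each gene with a mean of at least 50 the 2 genes with the highest r. Leaving out the DE2 vehicle library of 7H2, receptor shares by longest coding transcript and the GC box motif were chosen after seeing the data.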

Additional observations from a re-analysis of the deposited data

Results flagged for a closer look

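The dTAG13 effect on Fgf10 differed between stages with the cell line as a block, being larger in DE1 than in PS by 1.04 on the log2 scale (limma, adjusted p = 0.00728) and larger in DE2 than in DE1 by 0.96 (adjusted p = 0.00615). The effect on Fgf15 was also different, at -3.46 for DE2 minus DE1 (adjusted p = 0.0246). None of these was called without the block. The effect on Fgf8 had opposite signs in all 3 lines, lower with dTAG13 in EPI and higher in DE1 and in DE2. Its mean log2 effect was greater than in EPI by 0.47 in DE1 and by 0.81 in DE2, and these differences were not tested.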

How the results depend on the processing

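Over 100 results for the members, 1220 alternative values were computed under 12 planned settings and 1 added later. Of these 1159 kept their direction and their side of the threshold, 27 lost a call, 27 gained a call and 7 changed sign. All 7 sign changes came from leaving out a line: the Fgf15 effect in DE1 ranged from -1.65 to 0.59, the Fgf17 step from DE1 to DE2 from -1.68 to 0.74, that of Fgfr3 from -0.32 to 2.04, the Fgfr4 effect in PS from -2.01 to 0.96, its step from EPI to PS from -1.995 to 1.08, and its differences in effect from -2.89 to 0.69 (PS minus EPI) and from -1.73 to 1.34 (DE1 minus PS). No other setting reversed a member. Not every change of call is named. The groups of a comparison alone gained 6 member calls and lost 3, and a pseudocount of 5 gained 2. The filter at 50 and quantile normalisation gained 1 each. Quantile normalisation lost Fgf4 in DE2 (limma, adjusted p = 0.0682) and Fgf5 in DE1 (0.0693), and the fit without a trend lost Fgfr2 in DE2 (0.0503). Rescaling to equal totals called Fgf10 (0.0444) and Fgfr1 (0.0366) in DE1.

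In paired fits with the replicate block (the cell line), counts of called genes were 86 in EPI, 362 in PS, 2376 in DE1 and 4139 in DE2, against 13, 33, 1167 and 2551, and 39, 954 and 2258 for the differences in effect, against 2, 322 and 895. The block changed no other member's call than those given. With the groups of a comparison alone the counts were 2, 11, 2304 and 1564, and 0 and 512 for the first differences, and Fgf4 (adjusted p = 0.191) and Fgf15 (0.0511) were not called in DE2. The fit without trend called 4 genes in EPI, and the difference of PS and EPI had 1 with a pseudocount of 5 and 0 with quantile normalisation or without a trend. Leaving out libraries gave 3 to 4 genes in EPI, 9 to 21 in PS, 374 to 705 in DE1 and 957 to 1985 in DE2, then 1357 to 3086 from EPI to PS (4132 with all), 3878 to 5039 from DE1 to DE2 (5914), and 0 to 2, 71 to 136 and 174 to 737 for the differences. With equal totals the split of calls was 1693 higher and 2362 lower from EPI to PS (2200 and 1932 as reported), 733 and 484 in DE1 (562 and 605), and 338 and 552 for DE2 minus DE1 (439 and 456). Causes were not tested. Values under about 10, as for Fgf4 and Fgf15 in DE1 and most of Fgfr4, rest on few reads.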

Other observations

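In the vehicle course Shisa2, described above for its fall with dTAG13, rose from 221, 292 and 447 in PS to 9093, 11133 and 11801 in DE1 (limma log2 fold change 5.11, adjusted p = 7.58e-13). In the same step the glypican gene Gpc4 rose by 3.70 (adjusted p = 2.8e-12) and the adaptor gene Gab1 by 2.45 (adjusted p = 3.79e-11). The ERK feedback genes Spry2 (-2.37, adjusted p = 1.1e-09) and Dusp4 (-2.30) fell, among 8 of 14 feedback genes that fell and 2 that rose, where 22.4% of all tested genes fell and 21.7% rose. Fgf3, at 10.6, 7.73 and 5.95 in EPI, rose to 253, 530.0 and 885 in PS (5.79, adjusted p = 1.34e-06).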
